A study of Mus musculus with 21 samples.

Results

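The genes described here encode the subunits of Mediator, the cohesin complex with the proteins that load and release it, and 3 proteins that hold distant DNA sites together. They were taken by gene name: every name made of Med and a number, with or without a final l, which gave 30 Mediator genes, and a list of 12 others (Smc1a, Smc3, Rad21, Stag1, Stag2, Nipbl, Wapl, Pds5a, Pds5b, Ctcf, Ldb1 and Yy1). These 42 genes were found among 32285 genes in the time course tables and among 25239 genes in the tables of the Cyp26a1 set. The rule uses gene names only, but it was set with earlier results of these data known.

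Mediator is a large protein complex that passes signals from transcription factors on enhancers to RNA polymerase II at promoters. Its head and middle modules contact the polymerase, the tail module contacts transcription factors, the scaffold subunit Med14 joins them, and a separable kinase module controls the contact with the polymerase. Cohesin is a ring that is loaded on DNA by Nipbl, extrudes loops of chromatin that stop at Ctcf, and is released by Wapl with the Pds5 proteins. In embryonic stem cells (ESCs), Mediator and cohesin occupy the enhancers and promoters of active pluripotency genes, while Ldb1 and Yy1 bridge enhancers and promoters by pairing with themselves.

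Polyadenylated RNA of mouse ESCs was sequenced in 21 libraries, in 7 groups of 3. ESC_0h were wild-type cells in serum medium with LIF and the inhibitors PD0325901 (1 µM) and CHIR99021 (3 µM), together called 2i. The groups noRA_12h and noRA_24h were wild-type cells deprived of LIF and 2i for 12 h and 24 h, and RA_12h and RA_24h were wild-type cells given 2 µM retinoic acid (RA) for the same times. Whether those RA groups also lost LIF and 2i is not stated. In a separate set, WT_RA24h (wild type) and KO_RA24h (Cyp26a1 knockout) were both deprived of LIF and 2i and kept for 24 h in 2 µM RA. Cyp26a1 encodes an enzyme that degrades RA. Neither the ESC line nor a knockout clone is named, and replicates are not said to be separate cultures, so p-values measure only the spread between these libraries, which may be technical. The levels of the 2 sets were not compared with each other.

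To show what kinds of transcript these are, 120 coding bases are printed for each of 4 members: Pds5a, which varied most between libraries of a group in the time course, Stag2, whose longest transcript had the lowest GC content, Med19, which varied least, and Med16, whose transcript had the highest GC content. Capitals mark G and C. The stretch of each gene is the middle of the coding exon whose GC content lies nearest to that of the whole coding sequence, read on the gene's strand from GENCODE M21 transcripts of mm10.
Pds5a: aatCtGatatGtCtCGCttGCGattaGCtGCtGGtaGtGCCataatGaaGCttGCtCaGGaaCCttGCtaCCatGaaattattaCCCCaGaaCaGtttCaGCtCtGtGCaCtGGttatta
Stag2: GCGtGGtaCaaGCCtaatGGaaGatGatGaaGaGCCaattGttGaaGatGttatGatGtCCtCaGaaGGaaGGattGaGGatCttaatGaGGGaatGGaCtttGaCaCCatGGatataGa
Med19: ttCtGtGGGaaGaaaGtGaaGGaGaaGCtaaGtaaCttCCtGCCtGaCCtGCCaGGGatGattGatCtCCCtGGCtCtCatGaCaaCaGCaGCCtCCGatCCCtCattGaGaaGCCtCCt
Med16: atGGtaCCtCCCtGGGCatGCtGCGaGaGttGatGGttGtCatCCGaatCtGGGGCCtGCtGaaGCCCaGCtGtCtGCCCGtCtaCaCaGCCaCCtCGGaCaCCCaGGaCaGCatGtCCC
The Pds5a stretch lies in exon 24 (chr5:65628001-65628120, minus strand) with 43.3% GC, against 43.2% in its 3996 coding bases. The Stag2 stretch lies in exon 32 (chrX:42269384-42269503, plus strand) with 41.7% GC, against 41% in 3804 coding bases. The Med19 stretch lies in exon 2 (chr2:84685259-84685378, plus strand) with 51.7% GC, against 55.2% in 732 coding bases. The longest Med19 transcript, the measure used below, had only 46.1% GC, under the median of 46.9% over the members. The Med16 stretch lies in exon 12 (chr10:79896795-79896914, minus strand) with 60.8% GC, against 61.5% in 2592 coding bases. The lowercase letters are most frequent in the 2 cohesin genes, Pds5a and Stag2.

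Depth, estimated from the ratio of coverage to FPKM, ranged from 2.96 to 3.91 aligned gigabases among time course libraries and from 2.72 to 3.24 among those of the Cyp26a1 set. The targeted gene Cyp26a1 stood at 585, 606 and 592 TPM (a level scaled for transcript length and library depth) in WT_RA24h and at 4.62, 4.03 and 4.93 TPM in KO_RA24h. All 9 ESC markers stood at 1 TPM or more in every library. The 6 primitive endoderm markers summed to 1.92 to 3.86 TPM without RA, 20.5 to 24.4 TPM in RA_12h, 111 to 127 TPM in RA_24h, 255 to 271 TPM in WT_RA24h and 102 to 108 TPM in KO_RA24h. The 6 fibroblast markers summed to 2.69 to 16.6 TPM over all libraries, with Twist2 listed at 0 in all libraries of ESC_0h, noRA_12h, noRA_24h and WT_RA24h. The 4 neural markers summed to 34.2 to 82.1 TPM and the 3 blood markers to 0.944 to 6.06 TPM. The part of these other cell types in the results below was not tested. In bulk RNA, a change in the cells present and a change of RNA per cell cannot be told apart.

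Tests were run on log2(TPM + 1) with limma, and an adjusted p is Benjamini-Hochberg over all genes tested in a set. A gene was tested when 3 or more libraries of the set held 1 TPM or more of it, which left 13948 in the time course and 12848 in the Cyp26a1 set. Of the 42 members, 41 passed this filter in each set. The exception was Med12l, the paralogue of the kinase module subunit Med12, at 0.101 to 1.08 TPM over the 21 libraries. Rad21, the cohesin subunit that closes the ring, had the highest median level over all libraries among the members, at 118 to 331 TPM, and Ldb1 stood at 104 to 238 TPM. Nipbl, the loader, stood at 0.225 to 9.80 TPM. The exons of 20 of the 42 members overlap exons of another gene, 17 of them on the opposite strand. Strand of the reads is not stated, so levels of these genes are uncertain.

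**Figure D1:**
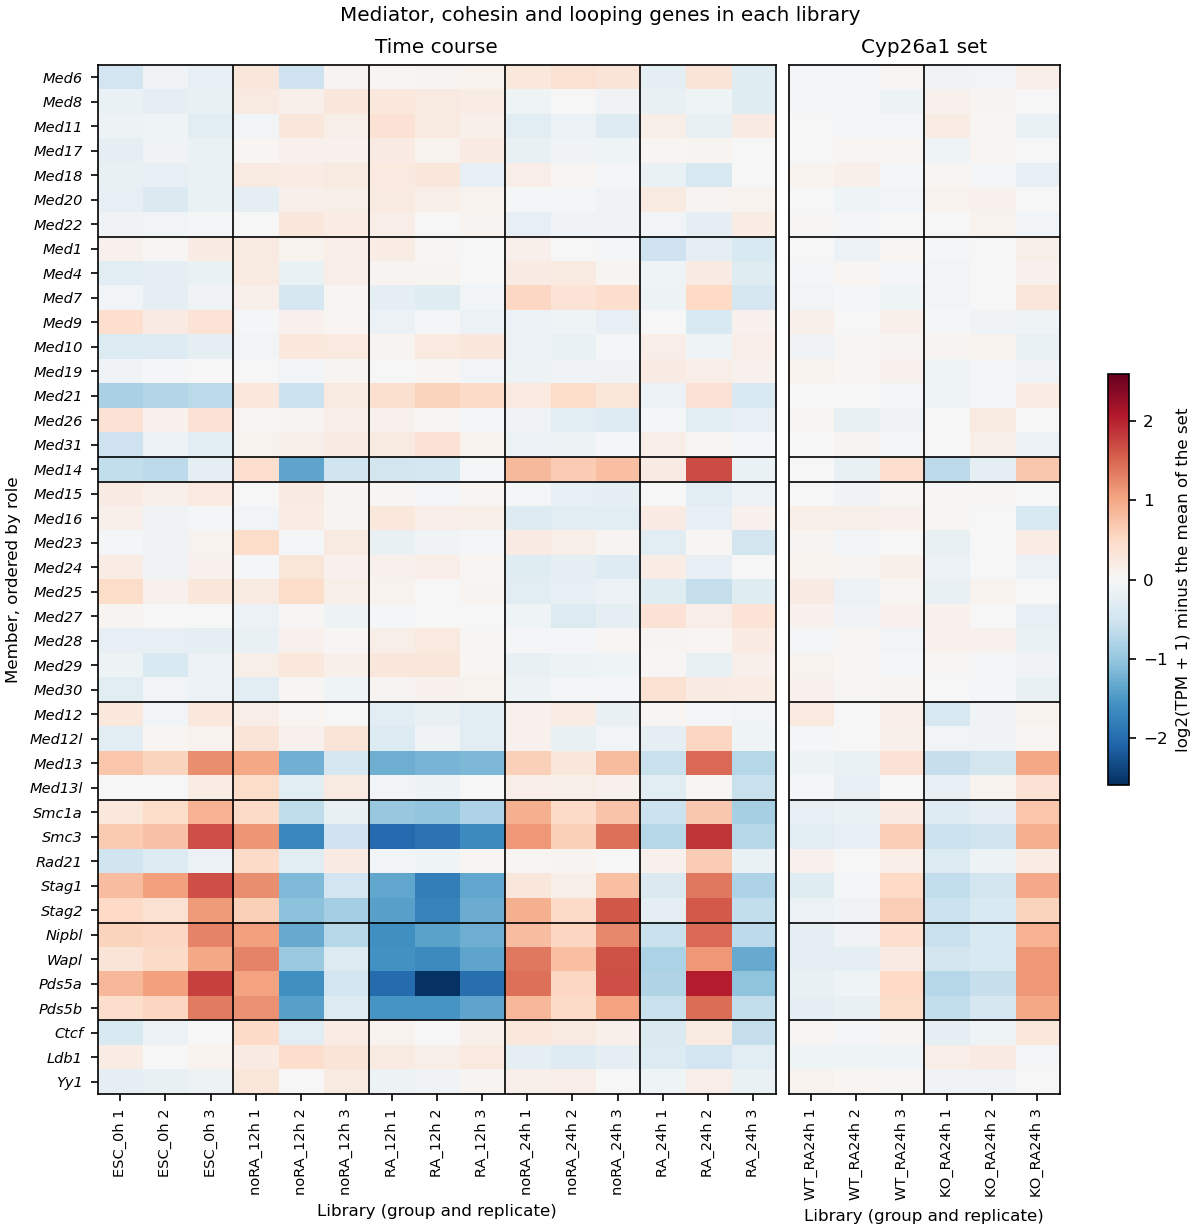
Level of each of the 42 members (rows, ordered by role, with lines between roles) in each library (columns, with lines between groups), as log2(TPM + 1) minus the gene's mean over the libraries of its set. Pds5a, Smc3, Stag1, Stag2, Nipbl, Wapl, Pds5b and Med13 are high or low together within a library, while most Mediator rows stay pale.

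Libraries of the same group differed far more in some members than in others. The SD within groups in the time course, on log2(TPM + 1), was above 0.7 for 8 members, a threshold chosen after the values were seen. These were Pds5a (1.04), Smc3 (0.98), Pds5b (0.83), Wapl (0.82), Nipbl (0.82), Stag1 (0.80), Med13 (0.77) and Stag2 (0.75). They comprise the cohesin subunits Smc3, Stag1 and Stag2, the 4 loading and release genes, and Med13, which links the kinase module to the rest of Mediator. The scaffold gene Med14 (0.62) and the ring subunit Smc1a (0.49) followed. The remaining 31 members ranged down to 0.05 for Med19, and the median was 0.14 over the 41 members and 0.16 over all 13948 genes. The median SD in the Cyp26a1 set was 0.13 over members and over all genes, and the 8 genes stood at 0.54 to 0.79 there.

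Pds5a, a large regulator that binds the cohesin ring, was measured at 31.4, 36.1 and 60 TPM in ESC_0h, 35.9, 4.89 and 11.7 TPM in noRA_12h, and 3.46, 2.00 and 3.59 TPM in RA_12h (libraries 1 to 3 in order). It stood at 47.2, 24.8 and 56.3 TPM in noRA_24h, and at 9.36, 71.9 and 7.64 TPM in RA_24h. Library 1 of noRA_12h and library 2 of RA_24h were far above the other 2 of their groups, and library 2 of RA_24h was above every noRA_24h library. Smc3, the partner of Smc1a in the ring, was measured at 27.3, 2.93 and 7.73 TPM in noRA_12h, against 6.65, 44.9 and 6.62 TPM in RA_24h. Nipbl was at 6.75, 0.499 and 1.21 TPM in noRA_12h, against 1.47, 9.25 and 1.31 TPM in RA_24h. The same libraries, 1 of noRA_12h and 2 of RA_24h, were highest for all 8 genes.

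Within 6 of the 7 groups, all 8 genes were highest in the same library, and in RA_12h 7 of 8 were. The ratio of the highest to the lowest library had a median over the 8 genes of 8.31 in noRA_12h, 6.78 in RA_24h, 3.32 in KO_RA24h, 1.88 in ESC_0h, 1.78 in noRA_24h, 1.72 in WT_RA24h and 1.58 in RA_12h. Summed over the 8 genes, the level was 153, 21.5 and 44.7 TPM in noRA_12h, 38.3, 218 and 30.9 TPM in RA_24h, and 14.9, 12.6 and 17.6 TPM in RA_12h. It was 106, 116 and 194 TPM in ESC_0h and 154, 101 and 193 TPM in noRA_24h. RA_12h lay below every other time course group without overlap. In the Cyp26a1 set the sums were 136, 144 and 233 TPM in WT_RA24h and 106, 115 and 332 TPM in KO_RA24h. The other 29 Mediator genes together held 1135 to 1392 TPM in all 21 libraries.

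**Figure D2:**
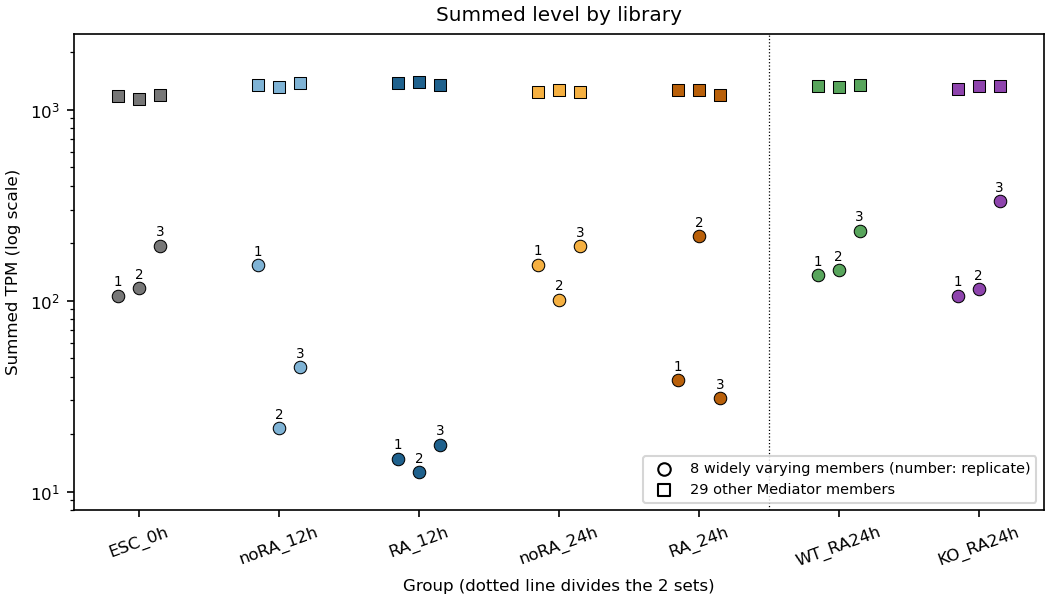
Summed TPM (log axis) of the 8 widely varying members (circles, numbered by replicate) and of the other 29 Mediator members (squares) in each library, by group. The circles span 12.6 to 332 TPM and the squares 1135 to 1392 TPM.

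The 8 genes moved with the main axis along which libraries of a group differ, which was computed from all genes except the members as the first component of the residuals from group means. That axis held 67.1% of the variance within groups in the time course and 69.9% in the Cyp26a1 set. In the time course, Pearson r between each of the 8 genes and the axis within groups was 0.95 to 0.99 over 15 libraries, given as a description. Among the 8 genes it was 0.94 to 1.00 in 28 pairs. Following the axis was not particular to the 8 genes. Other members that did so were Med14 (0.98), Smc1a (0.98), Rad21 (0.95), Ctcf (0.95), Med13l (0.91), Med23 (0.90), Med6 (0.89), Med7 (0.89), Med4 (0.85) and Med21 (0.84). Several Mediator genes had the opposite sign, such as Med11 (-0.91, 53.0% GC), a head subunit, and Med16 (-0.85, 60.2% GC), a tail subunit. The sign did not follow GC content throughout. Med28 (45.7% GC) had -0.72 and Med30 (43.7% GC) -0.47, while Med13l (51.7% GC) had 0.91 and Yy1 (50.7% GC) 0.82. Axis scores were 31.6, -43.3 and -13.4 in noRA_12h, -36.9, -40.9 and -33.6 in RA_12h, and -16.8, 51.3 and -29.4 in RA_24h. They were -0.9, 10.6 and 28.2 in ESC_0h, and 31.3, 23.2 and 38.8 in noRA_24h. The axis therefore differed between groups as well as within them: all RA_12h libraries were low and all noRA_24h libraries high.

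The widely varying members have long transcripts of low GC content. The longest GENCODE M21 transcript of the 8 genes was 4851 bases (Smc3) to 10546 bases (Med13) long, with 38.1% (Stag2) to 43.2% (Pds5a) GC. The medians over the members were 3956 bases and 46.9%, and those over all genes tested in the time course were 3083 bases and 50.3%. Spearman's rho between SD and GC content was -0.60 over the 41 members and -0.42 over all genes, and between SD and length 0.48 over members and 0.02 over all genes. These correlations are across genes, which share libraries and are not independent. Of all genes, 921 had a transcript of at least 4500 bases and at most 44% GC, and their median SD was 0.48. The 9 members among them had a median of 0.82. Med13l, with 9296 bases and 51.7% GC, had an SD of 0.23, and Med7, with 2547 bases and 40.2% GC, one of 0.27, both named after their values were seen. What separates the libraries was not tested, and the instrument behind each library is not given.

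**Figure D3:**
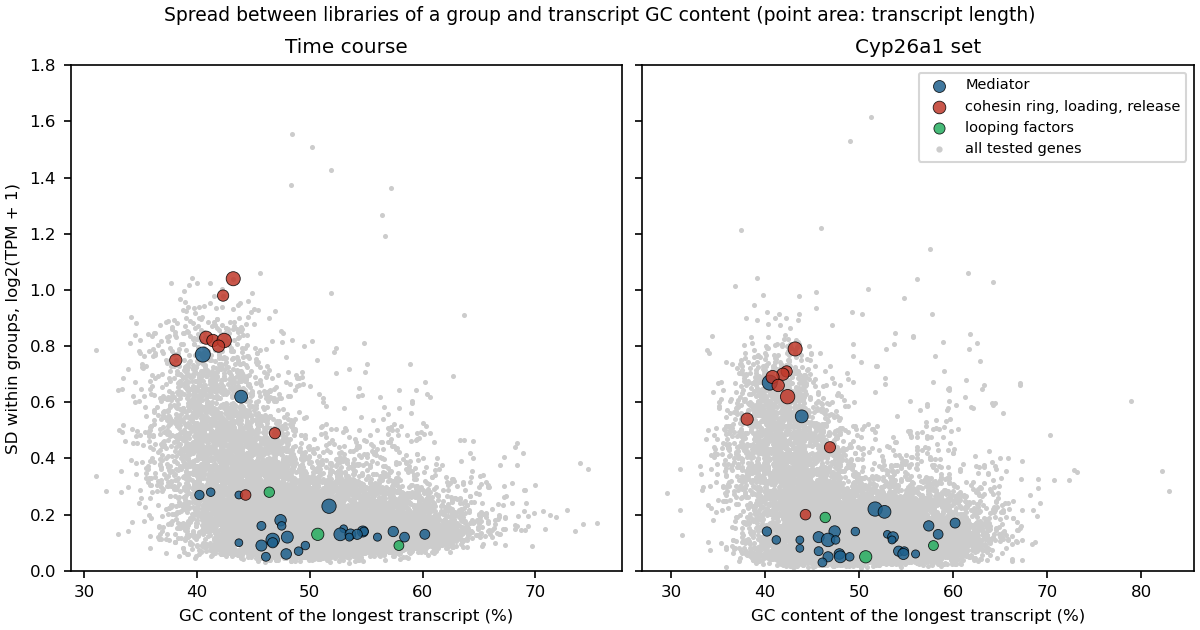
SD within groups of log2(TPM + 1) (vertical axis) against the GC content of the longest transcript in percent (horizontal axis) for all tested genes (grey) and the members (coloured by complex, area by transcript length), in the time course and the Cyp26a1 set; 4 genes of the Cyp26a1 set lie above the axis limit of 1.8. Of the 9 cohesin genes, 7 lie with Med13 at the upper left, from 0.75 to 1.04 in the time course, with Smc1a at 0.49 and Rad21 at 0.27, and most Mediator genes lie below 0.3.

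At 12 h after removal of LIF and 2i, several head and middle subunits of Mediator and the looping factors Yy1 and Ldb1 were called higher than in ESC_0h, while no cohesin gene passed the test. Calls of Med11, Med20, Ldb1 and Med9 depended on single libraries, as given below. In noRA_12h, 11 of 41 tested members rose and 1 fell, against 22.0% and 20.4% of all genes, so the share that rose was close to that of all genes. The median change was 0.06 over the members and -0.04 over all genes. By role, 5 of 7 head genes, 3 of 9 middle genes, 1 of 9 tail genes and 2 of 3 looping factors rose, and 1 middle gene fell.

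Med21, a middle subunit at the hinge of the complex, was measured at 39.3, 41.6 and 43.4 TPM in ESC_0h and at 87.0, 48.5 and 83.9 TPM in noRA_12h. The groups did not overlap, and the change was 0.76 on the log2(TPM + 1) scale (SE 0.21, adjusted p = 0.00905). Med8, a head subunit that helps to hold the polymerase contact surface, was at 106, 102 and 105 TPM in ESC_0h and at 141, 131 and 147 TPM in noRA_12h. All 3 later libraries were higher, with a change of 0.41 (SE 0.06, adjusted p = 1.10e-04). Med10, a middle subunit, rose by 0.47 (SE 0.10, 60.7 to 85.1 TPM on average), and Med31, one of the most conserved subunits, by 0.46 (SE 0.10, 23.6 to 32.8 TPM). Med18 (0.42, SE 0.13), Med29 (0.41, SE 0.10) and Med17 (0.26, SE 0.06), the central head subunit, also rose. Yy1, a zinc finger protein that binds promoters and enhancers, was at 29.6, 31.1 and 32.3 TPM in ESC_0h and at 44.5, 35.3 and 42.0 TPM in noRA_12h, a change of 0.37 (SE 0.10, adjusted p = 0.0104) without overlap.

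The calls of Med8, Med10, Med17, Med21, Med29, Med31 and Yy1 held in all 18 other settings tried, and that of Med18 ended with the correction for length and GC content (0.33, adjusted p = 0.0780). Those of Med11 (0.31, SE 0.12), Med20 (0.27, SE 0.10), Ldb1 (0.23, SE 0.07) and Med9 (-0.30, SE 0.11) ended when 1 library was left out. That held for 5, 4, 2 and 5 of the 6 libraries in turn. The adjusted p then reached 0.174 for Med11, 0.166 for Med20, 0.0773 for Ldb1 and 0.156 for Med9. Quantile normalization ended all 4 of these calls. Exons of Med10, Med20, Med21, Med29, Med31 and Ldb1 overlap those of a gene on the opposite strand.

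The 9 cohesin genes had changes of -1.58 to 0.49 in noRA_12h with SEs of 0.20 to 0.75, and none passed. The lowest adjusted p was that of Rad21 (0.0673), whose mean was 134 TPM in ESC_0h and 192 TPM in noRA_12h. The largest changes not called were those of Pds5a (-1.58, SE 0.75, adjusted p = 0.110) and Smc3 (-1.40, SE 0.71, adjusted p = 0.131). Without library 1 of noRA_12h, 21 members were called, 13 higher and 8 lower, against 21.9% and 24.1% of all genes in that setting. The 8 lower were Nipbl, Smc3, Stag1, Stag2, Pds5a, Pds5b, Smc1a and Med13, and Smc3 then had a change of -2.16 (SE 0.65, adjusted p = 0.0178). With the axis score as a covariate, 27 members were called, 18 higher and 9 lower, against 29.4% and 28.3% of all genes.

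At 24 h without LIF and 2i, 5 tail genes of Mediator were called lower than in ESC_0h, and the scaffold gene was called higher. Among these tail and scaffold calls, only those of Med25 and Med15 held in all 18 other settings. Middle genes went both ways, with 3 of 9 higher and 2 lower. In noRA_24h, 7 of 41 members rose and 8 fell, against 25.4% and 26.5% of all genes, so members were called in smaller shares than all genes. The median change was 0.07 over the members and 0.03 over all genes. Of the 9 tail genes 5 fell and 1 rose. No cohesin gene of 9 passed, with changes of -0.77 (Stag1) to 0.66 (Wapl).

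Med21 stood at 85.9, 99.8 and 89.8 TPM in noRA_24h, about the level of the 2 high noRA_12h libraries, with a change from ESC_0h of 1.13 (SE 0.21, adjusted p = 4.58e-04; 0.70 with the correction for length and GC content). Med14, the scaffold, was at 6.71, 6.55 and 9.11 TPM in ESC_0h and at 20.5, 18.1 and 19.8 TPM in noRA_24h. The groups did not overlap, and the change was 1.29 (SE 0.45, adjusted p = 0.0289). Its call ended when 1 library was left out for 5 of the 6 libraries, with an adjusted p of up to 0.0783. Among the subunits of the head and middle, Med6 (0.61, SE 0.20), Med7 (0.59, SE 0.20) and Med4 (0.40, SE 0.12) rose, and so did Yy1 (0.31, SE 0.10) and the tail gene Med28 (0.22, SE 0.08). Leaving out 1 library ended each of these calls. That held for 2 of the 6 libraries with Med6, 3 with Med7, 1 with Med4, 4 with Yy1 and 6 with Med28. The adjusted p reached 0.0868 for Med6, 0.0780 for Med7, 0.0502 for Med4, 0.0835 for Yy1 and 0.115 for Med28. With the correction for length and GC content, the calls of Med6 (0.14, adjusted p = 0.123), Med7 (0.24, adjusted p = 0.117), Med4 (0.09, adjusted p = 0.238) and Med28 (-0.01, adjusted p = 0.963) ended as well. Med21, Med14, Med6, Med7 and Med4 followed the axis within groups (r 0.84 to 0.98), and all noRA_24h libraries were high on it. With the axis score as a covariate they were still called higher, though p-values of that fit are too small because the axis comes from the same libraries.

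Med26, a middle subunit that recruits elongation factors, was at 19.4, 16.0 and 19.6 TPM in ESC_0h and at 13.9, 12.1 and 11.5 TPM in noRA_24h. Every later library was lower, and the change was -0.52 (SE 0.10, adjusted p = 8.60e-04). Med25, a tail-associated subunit bound by many activators, was at 118, 90.7 and 103 TPM in ESC_0h and at 69.7, 72.3 and 75.3 TPM in noRA_24h, a change of -0.51 (SE 0.11, adjusted p = 0.00169). Med9 (-0.49, SE 0.11) and Med15 (-0.37, SE 0.09), a tail subunit that binds activators, fell too. Ldb1, the dimerizing cofactor of LIM proteins, was at 199, 175 and 185 TPM in ESC_0h and at 147, 136 and 147 TPM in noRA_24h, a change of -0.37 (SE 0.07, adjusted p = 6.65e-04). These 5 calls, of Med26, Med25, Med9, Med15 and Ldb1, held in all 18 other settings, though the correction for length and GC content moved Med26 to -0.27, Med25 to -0.26, Med15 to -0.57 and Ldb1 to -0.12. The tail genes Med24 (-0.37, SE 0.11), Med16 (-0.31, SE 0.11) and Med27 (-0.26, SE 0.08) also fell. Left out 1 at a time, 1, 5 and 2 of the 6 libraries in turn ended these calls (adjusted p up to 0.0582, 0.119 and 0.0715). The correction for length and GC content ended the calls of Med24 (-0.18) and Med16 (-0.03), and median-of-ratios scaling and quantile normalization those of Med16 and Med27. Exons of Med7, Med15, Med21, Med26, Med27 and Ldb1 overlap those of an opposite-strand gene. The count of members called was 8 without library 1 of ESC_0h and 8 without library 2 of noRA_24h. In the first case 3 were higher and 5 lower, against 21.5% and 23.2% of all genes. In the second 2 were higher and 6 lower, against 21.6% and 24.2%. The 2 comparisons with ESC_0h share those 3 libraries, so Ldb1, 0.23 at 12 h and -0.37 at 24 h, is given side by side only.

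At 12 h of RA, no member passed the test against noRA_12h. By limma, 0 of 41 members were called higher or lower, against 10.2% and 7.19% of all genes, and 8 had an unadjusted p below 0.05. Array weights, which let limma give libraries unequal weight, brought 25 calls in a fit that stopped before full convergence. Of these, 5 were higher and 20 lower, against 28.5% and 34.0% of all genes in that setting. The median change was -0.08 over the members and -0.01 over all genes. The 3 libraries of each group did not overlap for 2 members that were higher with RA (background 18.9% of genes) and 7 that were lower (background 17.1%). The 2 were Med21 and Med30, and the 7 were Med12, Med25, Smc1a, Stag1, Stag2, Wapl and Pds5a.

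The largest changes were those of cohesin genes, with SEs to match. Pds5a, with the library values given above, had a change of -1.83 (SE 0.75, adjusted p = 0.123). Wapl, the release factor, was at 42.4, 8.06 and 13.0 TPM in noRA_12h, against 5.00, 4.64 and 5.86 TPM in RA_12h, a change of -1.52 (SE 0.59, adjusted p = 0.103). All RA libraries lay below all libraries without RA, but by a wide margin only for library 1. Over the 9 cohesin genes the median was -1.28, and the narrowest SE was that of Rad21 (0.20), at -0.20. The Mediator member nearest to the threshold was Med12, the subunit that activates the kinase, at 19.4, 17.8 and 17.3 TPM without RA and 14, 14.9 and 14 TPM with RA (-0.32, SE 0.11, adjusted p = 0.0690).

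Which members passed at 12 h depended on the library left out. Without library 2 of noRA_12h, 7 were called: Med30 higher (10.7% of all genes) and Med23, Smc3, Pds5a, Pds5b, Stag1 and Wapl lower (8.92% of all genes), with Pds5a at -2.46 (SE 0.77, adjusted p = 0.0425). With the axis score as a covariate, 14 were called, 4 higher (Med6, Med14, Med21, Ctcf) and 10 lower, against 14.8% and 13.5% of all genes, and Wapl then had -0.66 (SE 0.12, adjusted p = 4.94e-04) and Nipbl -0.24 (SE 0.16, adjusted p = 0.289). The axis was computed from these same libraries, so the p-values of this fit are too small. All RA_12h libraries were low on it, so the covariate also carries part of the difference between the groups. With each library corrected for transcript length and GC content, 8 were called, 2 higher (Med6, Med21) and 6 lower, among them Stag1 and Wapl. The shares of all genes were then 11.7% higher and 14.8% lower. That correction moved the calls over all genes from 1428 higher and 1003 lower to 1626 higher and 2062 lower.

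At 24 h of RA, Med27, Med30, Med19, Med16 and Med17 were higher than in noRA_24h, and Med1 and Med23 were lower. In RA_24h, 5 of 41 members rose and 2 fell, against 22.8% and 12.5% of all genes, and the median change was -0.15 over the members and 0.02 over all genes. The groups did not overlap for 9 members higher with RA (background 27.6%) and 5 lower (background 15.9%). Of the 9 tail genes 3 rose, 1 fell and 5 were not called. None of the 9 cohesin genes and 3 looping factors passed. All 6 primitive endoderm markers rose in the same comparison.

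Med27 (ENSMUSG00000026799, chromosome 2, 29346819 to 29524793, plus strand), a subunit at the junction of tail and head, was measured at 37.4, 31.3 and 34.4 TPM in noRA_24h and at 52.6, 45.8 and 51.6 TPM in RA_24h. All RA libraries were higher, and the change was 0.53 (SE 0.08, adjusted p = 1.58e-04). Med19 (ENSMUSG00000027080, chromosome 2, 84678402 to 84688215, plus strand), a middle subunit whose sequence is shown above, was at 58.8, 60.1 and 60.2 TPM and at 74.7, 73.2 and 69.9 TPM, a change of 0.28 (SE 0.05, adjusted p = 0.00149) without overlap. Med30 (ENSMUSG00000038622, chromosome 15, 52712408 to 52730564, plus strand), a metazoan subunit of the tail side, was at 58.8, 62.7 and 63.5 TPM and at 84.6, 75.0 and 73.9 TPM, a change of 0.33 (SE 0.08, adjusted p = 0.00865). These 3 calls held in all 18 other settings, with Med30 at 0.58 under the correction for length and GC content. Exons of Med27 and Med19 overlap opposite-strand genes (Gm13402 for Med27, Tmx2 and Zdhhc5 for Med19).

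Med1 (ENSMUSG00000018160, chromosome 11, 98152154 to 98193293, minus strand), the subunit that binds nuclear receptors once they carry their ligand, was at 27.9, 25.8 and 25.0 TPM in noRA_24h and at 17.1, 21.6 and 19.1 TPM in RA_24h. Every RA library was lower, and the change was -0.43 (SE 0.09, adjusted p = 0.00278). The call held in 17 of 18 other settings and ended with the correction for length and GC content. Med23, a tail subunit that binds activators of the MAP kinase pathway, fell by 0.39 (SE 0.14, adjusted p = 0.0416). Med16, a tail subunit, rose by 0.34 (SE 0.11, adjusted p = 0.0265), and Med17 by 0.17 (SE 0.06, adjusted p = 0.0411). Left out 1 at a time, 5 of the 6 libraries ended the calls of Med23 and of Med16, and all 6 that of Med17. The adjusted p rose to as much as 0.183, 0.125 and 0.149 in turn. Median-of-ratios scaling and quantile normalization also ended the calls of Med16 and Med17, and the correction for length and GC content left Med16 at 0.05 (adjusted p = 0.574).

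Among the cohesin genes, Wapl and Smc1a were just outside the threshold. Wapl was at 44.8, 29.5 and 55.2 TPM in noRA_24h and at 9.06, 37.8 and 6.22 TPM in RA_24h, a change of -1.60 (SE 0.59, adjusted p = 0.0519). Smc1a was at 64.4, 47.7 and 56.7 TPM and at 22.5, 54.8 and 18.0 TPM, a change of -0.96 (SE 0.35, adjusted p = 0.0505). Library 2 of RA_24h overlapped the group without RA for both genes, and the other 2 libraries were far below it. Both passed with median-of-ratios scaling (adjusted p = 0.0378 for Wapl and 0.0292 for Smc1a) and with the axis covariate, where the changes were -0.72 (SE 0.12) and -0.44 (SE 0.09). The largest other change not called was that of Pds5a (-1.15, SE 0.75, adjusted p = 0.250). Rad21 had 0.15 (SE 0.20, adjusted p = 0.564).

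The number of members called at 24 h moved with 1 library. Without library 2 of RA_24h, 24 members were called, 7 higher and 17 lower, against 28.0% and 25.9% of all genes. The lower ones then included Nipbl, Smc3, Stag2, Pds5a, Pds5b, Wapl, Smc1a, Med13 and Ctcf, with Wapl at -2.33 (SE 0.49, adjusted p = 0.00216). Without any other 1 of the 6 libraries, 4 members were called, 3 higher and 1 lower. The split of calls also moved with the scaling. It was 3 higher and 7 lower with median-of-ratios scaling, against 17.8% and 13.8% of all genes. With quantile normalization it was 3 higher and 6 lower, against 18.9% and 13.8%. With the correction for length and GC content it was 5 higher and 9 lower, against 18.3% and 21.5%. Over all genes that correction gave 2549 higher and 3002 lower in place of 3178 and 1737.

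**Figure D4:**
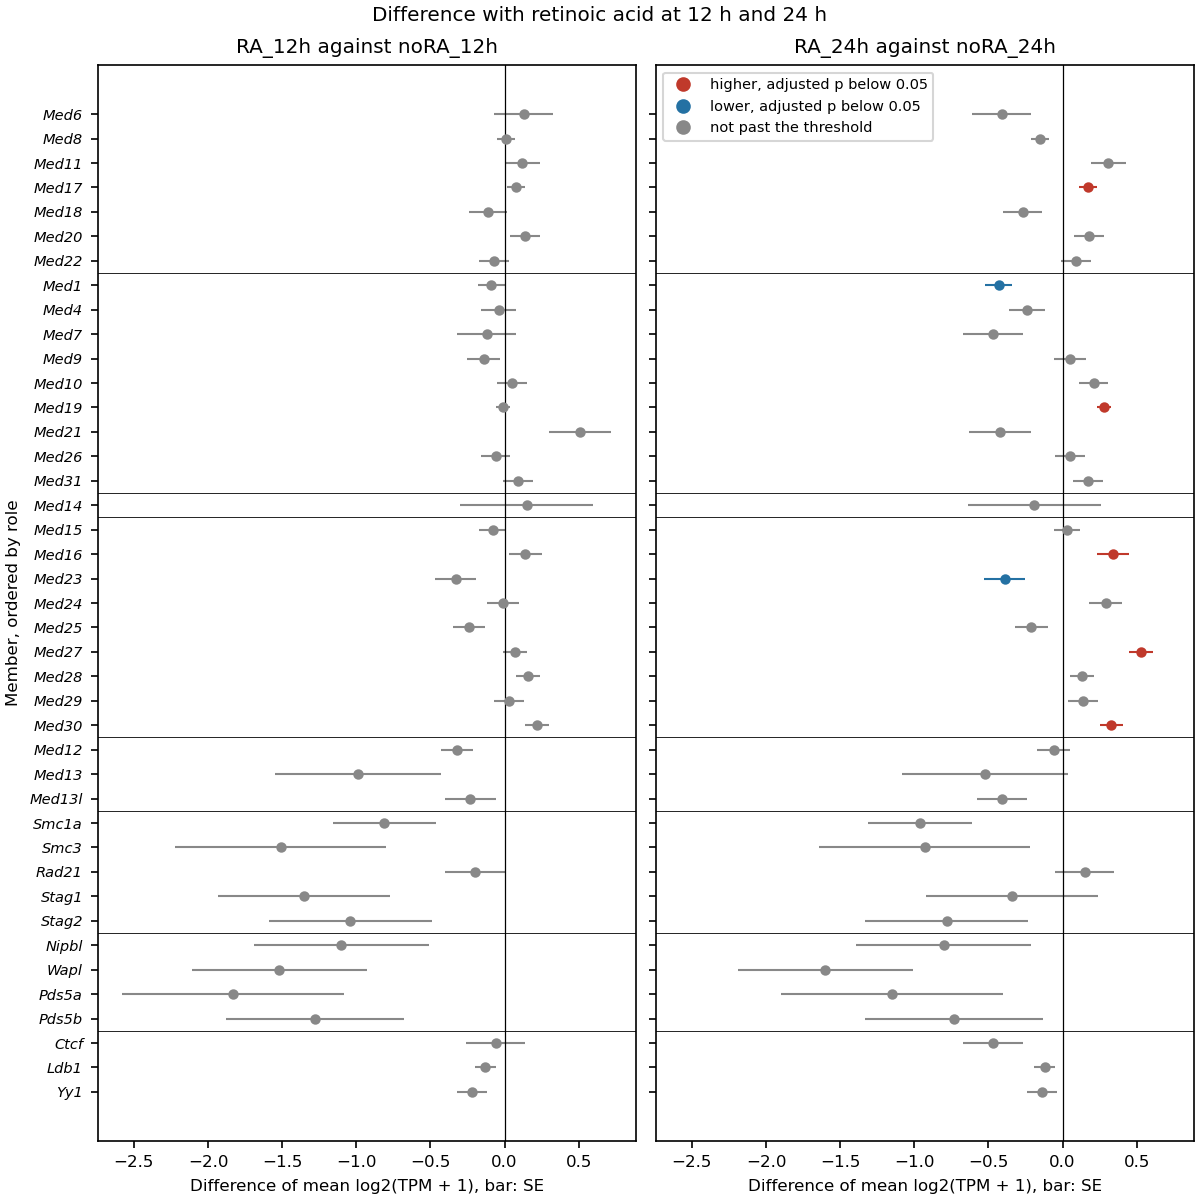
Difference of mean log2(TPM + 1) between RA and no RA for each of the 41 tested members, ordered by role with lines between roles, at 12 h (left) and 24 h (right), 3 libraries a group. Points are differences, bars are 1 SE, and colour marks an adjusted p below 0.05: none at 12 h, 5 higher and 2 lower at 24 h.

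The difference between the RA effects at the 2 times was tested directly. The signed RA effect was higher at 24 h than at 12 h for 2 of 41 members and lower for 0, against 4.17% and 2.68% of all genes, so the share of members was close to that of all genes. Med27 had 38.1 TPM on average in noRA_12h and 39.9 TPM in RA_12h (0.07, SE 0.08), so that its effect grew by 0.46 (SE 0.11, adjusted p = 0.0237). Med19 had 64.8 and 64.3 TPM on average at 12 h (-0.01, SE 0.05), and its effect grew by 0.29 (SE 0.08, adjusted p = 0.0409). Med21 had a change of 0.51 (SE 0.21) at 12 h and -0.42 (SE 0.21) at 24 h. The difference of -0.93 (SE 0.29) did not pass (adjusted p = 0.0789), though it did in 7 of 25 other settings. The largest difference not called was that of Stag1 (1.01, SE 0.82, adjusted p = 0.574). Left out 1 at a time, 7 of the 12 libraries ended the call of Med27 and 9 that of Med19. The adjusted p reached 0.0688 for Med27 and 0.112 for Med19. Both of these calls also ended with median-of-ratios scaling, quantile normalization and FPKM. Over all genes, 581 signed effects were higher and 374 lower at 24 h, but 279 and 320 with quantile normalization and 689 and 847 with the correction for length and GC content.

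In the Cyp26a1 set, no member passed the test between knockout and wild type. By limma, 0 of 41 were called higher or lower in KO_RA24h, against 3.34% and 6.65% of all genes, and 3 had an unadjusted p below 0.05 (Med19, Med24 and Ldb1). With array weights 7 were called, 4 higher and 3 lower, against 13.3% and 23.0% of all genes in that setting. All 6 primitive endoderm markers fell and 6 of 9 ESC markers rose in the same comparison. The median change was -0.05 over the members and -0.05 over all genes. Med19 was at 68.0, 65.7 and 68.9 TPM in WT_RA24h and at 58.5, 61.1 and 59.5 TPM in KO_RA24h. All knockout libraries were lower, and the change was -0.17 (SE 0.05, 95% interval -0.30 to -0.05, adjusted p = 0.0915). Ldb1 was at 104, 104 and 104 TPM in wild type and at 127, 131 and 111 TPM in knockout, a change of 0.24 (SE 0.07, 95% interval 0.06 to 0.41, adjusted p = 0.0926). Med24, a tail subunit, was at 59.2, 58.3 and 60.7 TPM and at 49.9, 54.8 and 49.6 TPM (-0.20, SE 0.06, adjusted p = 0.0932).

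The largest knockout changes were -0.27 for Med16 (SE 0.13, adjusted p = 0.251) and -0.26 for Med12 (SE 0.15, adjusted p = 0.350). For Med27 the change was -0.09 (SE 0.10, 95% interval -0.34 to 0.16). Intervals of the cohesin genes were wide, for example -1.33 to 1.07 for Pds5a. Library 3 of KO_RA24h held 50.3 TPM of Pds5a against 13.0 and 14.5 TPM in libraries 1 and 2. Without it, 4 members were called: Ldb1 higher (0.31, SE 0.04, adjusted p = 0.00368), and Rad21 (-0.34, SE 0.07, adjusted p = 0.0150), Pds5a (-0.73, SE 0.20, adjusted p = 0.0344) and Ctcf (-0.20, SE 0.06, adjusted p = 0.0490) lower, against 7.73% and 17.2% of all genes. The calls over all genes then went from 429 higher and 855 lower to 982 and 2178. With all libraries they were 522 and 522 under median-of-ratios scaling, 395 and 477 under quantile normalization, and 949 and 882 with the correction for length and GC content.

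Stag1 and Stag2 are alternative subunits of the cohesin ring, with longest transcripts of 6186 and 6171 bases and 41.9% and 38.1% GC. Their ratio within a library sets genes of like length, though not of like GC content, side by side. The TPM ratio of Stag2 to Stag1 was 0.303 to 0.409 in ESC_0h, 0.280 to 0.394 in noRA_12h and 0.156 to 0.342 in RA_12h. It was 0.668 to 0.994 in noRA_24h and 0.498 to 0.629 in RA_24h. The time course libraries at 24 h lay above all those at 0 h and 12 h. That also held for the libraries that stand apart in level, with 0.629 in library 2 of RA_24h and 0.333 in library 1 of noRA_12h. Within noRA_24h the ratios of 0.840, 0.668 and 0.994 ran in the order of the axis scores, and library 2 of RA_24h had the highest ratio of its group. In ESC_0h library 1, the lowest on the axis, had the highest ratio (0.409). Whether the ratio is free of the axis was not tested. RA_24h lay below noRA_24h without overlap. In RA_12h Stag2 was at only 0.154 to 0.580 TPM. In the Cyp26a1 set the ratio was 0.728 to 0.856 in WT_RA24h and 0.576 to 0.806 in KO_RA24h, which overlap. These are descriptions: an exact permutation test of 3 against 3 libraries cannot give a p below 0.10.

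Pds5a and Pds5b, the paired regulators of cohesin release, had a ratio of 4.06 to 4.40 in ESC_0h, 2.74 to 3.68 in noRA_12h and 1.75 to 3.00 in RA_12h. It was 3.18 to 4.73 in noRA_24h and 2.56 to 4.54 in RA_24h, which overlap each other. It was 1.58 to 1.62 in WT_RA24h and 1.38 to 1.66 in KO_RA24h. The ratio of Nipbl to Wapl, loader to release factor, was 0.121 to 0.150 in noRA_24h and 0.163 to 0.245 in RA_24h, without overlap, and 0.0620 to 0.159 in noRA_12h against 0.0449 to 0.0890 in RA_12h, with overlap. In the kinase module, the ratio of Med13 to Med13l was 0.0419 to 0.0474 in RA_12h and 0.267 to 0.381 in ESC_0h. It spread from 0.0496 to 0.266 in noRA_12h and from 0.113 to 0.523 in RA_24h. Here only Med13 belongs to the widely varying genes. In RA_12h, Med13 was at only 0.822 to 0.963 TPM and Nipbl at 0.225 to 0.522 TPM, so the ratios with these genes rest on low levels there. Med12 exceeded Med12l by 15.5 to 138 times.

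**Figure D5:**
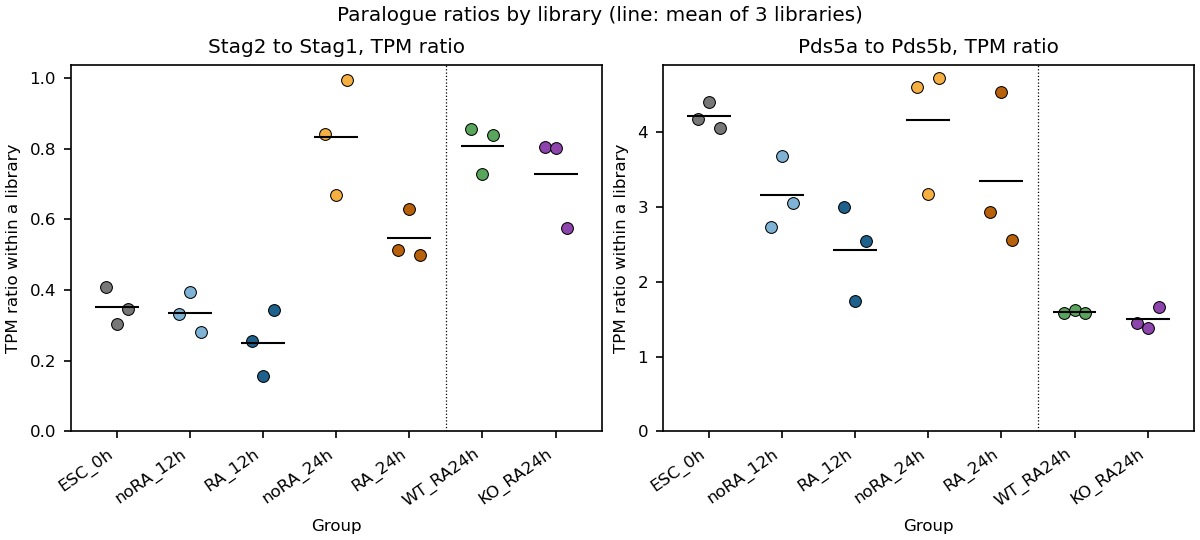
TPM ratio within each library of Stag2 to Stag1 (left) and of Pds5a to Pds5b (right), by group, with a line at the mean of 3 libraries and a dotted line between the 2 sets. For Stag2 to Stag1 the 24 h groups of the time course (0.498 to 0.994) lie above the groups at 0 h and 12 h (0.156 to 0.409).

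Genes that work with the members were read from lists by role. For reading these counts, the shares of all genes called higher and lower were 22.0% and 20.4% in noRA_12h and 25.4% and 26.5% in noRA_24h. With RA they were 10.2% and 7.19% at 12 h and 22.8% and 12.5% at 24 h. In the knockout they were 3.34% and 6.65%. Of 3 kinase partners (Ccnc, Cdk8, Cdk19), only Cdk8 passed, rising by 0.51 (SE 0.12) in noRA_24h against ESC_0h. Among polymerase II and coactivator genes, none rose at 12 h of RA. The largest to fall were Polr2a, the catalytic subunit of the polymerase, from 202 ± 13.1 TPM to 118 ± 7.78 TPM (SD, n = 3), with a change of -0.77 (SE 0.08), and Ep300, a histone acetyltransferase, with -0.74 (SE 0.20). At 24 h of RA, Polr2a fell (-0.61, SE 0.08) and none rose. In the comparisons with ESC_0h, 3 genes of this list rose at 12 h, led by Cdk7 (0.46, SE 0.16) and Cdk9 (0.26, SE 0.08), and at 24 h Cdk7 rose (0.69, SE 0.16) and Polr2a fell (-0.85, SE 0.08). None of them passed in the knockout comparison or in the difference of RA effects.

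The cohesin cycle list holds 13 genes, of which 12 were tested. Rec8, the meiotic counterpart of Rad21, fell from 29.9 ± 3.57 TPM in ESC_0h to 9.89 ± 1.09 TPM in noRA_12h and 8.72 ± 1.08 TPM in noRA_24h (changes of -1.50 and -1.67, SE 0.11 each), and stood at 25.3 ± 2.11 TPM in RA_24h (1.44 against noRA_24h, SE 0.11; n = 3 in each group, SD). Its RA effect was larger at 24 h than at 12 h by 0.98 (SE 0.16), the only gene of the list for which that test passed, and it fell in the knockout by 0.54 (SE 0.08). At 12 h without RA, Pttg1 (securin, 1.23, SE 0.06) and Cdca5 (sororin, 0.69, SE 0.09) rose, and Rec8 and Esco2 (-1.72, SE 0.64) fell. Libraries of noRA_12h differed widely for Esco2, at 5.62 ± 5.43 TPM (SD, n = 3). At 24 h without RA 3 rose, led by Stag3 (1.01, SE 0.14) and Hdac8 (0.66, SE 0.12), and Rec8 alone fell. With RA, Rec8 (0.46, SE 0.11) and Pttg1 (0.36, SE 0.06) rose and Espl1 (-0.29, SE 0.08) fell at 12 h. At 24 h Rec8 rose and 3 fell, led by Stag3 (-0.45, SE 0.14) and Cdca5 (-0.31, SE 0.09). In the knockout Cdca5 rose (0.32, SE 0.07).

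All 13 condensin and SMC5/6 genes were tested, with 1 higher and 2 lower in noRA_12h (all genes: 22.0% and 20.4%). In noRA_24h 0 were higher and 4 lower (all genes: 25.4% and 26.5%). At 12 h without RA, Nsmce4a rose (0.32, SE 0.07) and Ncapg2 (-1.34, SE 0.50, with 7.26 ± 6.14 TPM in noRA_12h, SD, n = 3) and Ncapd2 (-0.41, SE 0.07) fell, and at 24 h 4 fell, led by Ncapd2 (-0.66, SE 0.07) and Nsmce1 (-0.62, SE 0.10). With RA, 0 passed at 12 h, and Nsmce1 (0.47, SE 0.10) and Ncapd2 (0.26, SE 0.07) rose at 24 h. In the knockout Ncapd2 fell (-0.25, SE 0.05).

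Partners of the looping factors included larger changes. Of 16 genes 14 were tested, and 6 rose and 2 fell in noRA_12h, against 22.0% and 20.4% of all genes. Lmo4, a LIM-only protein that binds Ldb1, rose from 3.54 ± 0.275 TPM in ESC_0h to 24.3 ± 2.45 TPM in noRA_12h (SD, n = 3), a change of 2.47 (SE 0.09), and Ssbp2, which stabilizes Ldb1, rose by 1.78 (SE 0.20). Lmo1 (-1.14, SE 0.15) and Patz1 (-0.95, SE 0.08) fell. At 24 h without RA 5 rose, led by Lmo4 (2.58, SE 0.09) and Ssbp2 (1.63, SE 0.20), and Lmo1 (-2.15, SE 0.15) and Patz1 (-1.34, SE 0.08) fell. With RA at 12 h, Ctcfl, the germline paralogue of Ctcf, rose from 1.91 ± 0.278 to 3.66 ± 0.749 TPM (SD, n = 3; change 0.67, SE 0.15), and Patz1 fell (-0.35, SE 0.08). With RA at 24 h 3 rose, led by Ctcfl (0.78, SE 0.15) and Lmo2 (0.67, SE 0.19), and 3 fell, led by Zfp143 (-0.75, SE 0.27) and Zfp42 (-0.46, SE 0.12). In the knockout only Zfp42, also on the ESC marker list, passed (0.80, SE 0.05), from 208 ± 7.05 to 363 ± 9.97 TPM (SD, n = 3).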

How the data were processed

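Per the submitters' processing notes, HISAT2 and StringTie were used with the build mm10; the version of either tool is not given in the sources used here. In 1 gene abundance table per library, the authors deposited coverage (signal), FPKM and TPM columns, per the file headers. The deposited FPKM values are scaled for gene length and library size, and the deposited TPM values sum to 1000000 in each library. The coverage values the authors deposited served only to estimate depth. No read counts were used.

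Groups came from the sample titles. The filter kept genes that reached 1 TPM in 3 or more libraries of the set. Differences of log2(TPM + 1), a scale that understates changes of low genes, were tested with limma 3.58.1 under R 4.3.3, with moderated variances that follow the mean level. All 15 time course libraries entered 1 fit and the 6 Cyp26a1 set libraries another, with Benjamini-Hochberg adjustment over all genes tested and calls below 0.05. Transcript length and GC content are those of the longest GENCODE M21 transcript (99.92% and 98.01% of genes matched in the time course and the Cyp26a1 set). The limma step was tested on simulated data.

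The members, roles and gene lists were chosen with earlier results of these data known. All called members are named, up to 8 in each direction, with the 2 largest not called, and on other lists the 2 largest calls in each direction. In the Cyp26a1 set, same-numbered libraries of the 2 groups deviated together (r 0.189 to 0.536, each over 0.1), which comes from the data and not from the labels. Unlike-numbered ones did so too: r was 0.268 for knockout 2 with wild type 1 and 0.227 for knockout 1 with wild type 2. The values therefore do not single out pairs by number. The knockout values printed are those of the unpaired fit. With the replicate number as a block, 396 genes were called higher and 766 lower, and no member. Alternatives were another pseudocount, filter, scaling, unit (FPKM), variance trend, library weights, a replicate block, covariates and left-out libraries. The values of 1 gene on the list of polymerase II and coactivator genes are not reported here.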

Additional observations from a re-analysis of the deposited data

Results flagged for a closer look

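For 2 of 41 members, close to the 4.17% of all genes called in that direction, the RA effect differed between 12 h and 24 h by the test of the difference itself. The log2 difference was 0.46 for Med27 (SE 0.11, adjusted p = 0.0237 by limma), a Mediator subunit between tail and head, and all 3 RA libraries were above all 3 libraries without RA at 24 h. The log2 difference was 0.29 for Med19 (SE 0.08, adjusted p = 0.0409), a middle subunit, likewise with all 3 RA libraries higher at 24 h. Of 25 other settings, 15 kept the call of Med27 and 9 that of Med19, and both calls ended with median-of-ratios scaling, quantile normalization and FPKM.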

How the results depend on the processing

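Over the named members, 708 values under other settings kept their direction and side of the threshold, 142 fell short of it, 38 newly passed and 2 reversed. Med28 in noRA_24h against ESC_0h became -0.01 with the correction for length and GC content, and Stag1 in the change of the RA effect became -0.32 without noRA_12h library 1 and RA_24h library 2, a setting chosen after seeing the data, which gave 17 members called. Members called in noRA_12h were 12, but 30 with array weights (whose fit stopped before full convergence), 27 with the axis covariate, 24 with the correction for length and GC content, and 9 to 21 with 1 library left out. In noRA_24h they were 15, but 26 with the axis covariate and 8 to 13 with 1 library left out. Over all genes 7244 were called there, but 9042 with the axis covariate and 6185 to 6657 with 1 library left out. For RA at 12 h the count was 0, but 25 with array weights, 14 with the axis covariate, 8 with the correction, 1 with only the groups compared, and 0 to 7 with 1 library left out. For RA at 24 h it was 7, but 36, 15, 14 and 4 under those settings in turn, and 4 to 24 with 1 library left out. For the change of the RA effect it was 2, but 26 with array weights, 11 with the axis covariate, 4 with the correction, 1 with only the groups compared, 1 with median-of-ratios scaling (Med21, lower at -0.96), 0 with quantile normalization, 0 with FPKM, 1 without a variance trend, and 0 to 4 with 1 library left out. For the knockout it was 0, but 7 with array weights, 8 with the axis covariate, 2 with the correction, and 0 to 4 with 1 library left out. The axis was computed from the same libraries, so those p-values are too small. Its scores differed between groups, so the covariate also carries part of the group differences. With the replicate block the counts were 9, 13, 0, 5, 1 and 0 in the same order, and it changed no member's call in the knockout comparison. Over all genes the replicate block gave 5534, 6822, 2066, 4424, 714 and 1162 calls in that order. In the time course same-numbered libraries did not deviate together throughout (r -0.529 to 0.283 over the 4 pairs of groups). Genes called over all tested went from 5922 to 9798 in noRA_12h, from 2431 to 8710 for RA at 12 h, from 4915 to 10664 for RA at 24 h, from 955 to 7653 for its change and from 1284 to 4664 for the knockout with array weights. With the axis covariate they were 8039 in noRA_12h, 3953 for RA at 12 h, 5901 for RA at 24 h, 2927 for its change and 3647 for the knockout. With the correction they were 7111 in noRA_12h, 3688 for RA at 12 h, 5551 for RA at 24 h, 1536 for its change and 1831 for the knockout. Quantile normalization gave 599 for the change, and 4000 were called without both libraries. Without RA_24h library 2 the calls were 7428 for RA at 24 h and 1545 for the change. The knockout calls were 293, 325 and 301 without wild-type library 1, 2 or 3, and 677, 510 and 3160 without knockout library 1, 2 or 3. With 3 libraries a group, changes of the widely varying members could be detected only where large, and the cause of these moves was not tested.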
